A study of Mus musculus with 60 samples.

Results

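The striatum of mice with a knockout of Glo1 (KO) was compared between a diet lacking vitamin B6 (VB6) and a normal diet. The members are 10 libraries out of 60 in the series, chosen by their labels alone: 5 from KO mice on the lacking diet (mice 242, 244, 325, 339 and 452) and 5 from KO mice on the normal diet (mice 267, 268, 368, 381 and 390). The lacking diet held 5 µg of VB6 per 100 g and the normal diet 1.4 mg per 100 g, and the mice ate them between 8 and 12 weeks of age. Both groups carry the same Glo1 knockout, and all 10 libraries have batch label 1. The series also has wild-type (WT) mice on both diets, and the prefrontal cortex and hippocampus of the same mice. All WT libraries have batch label 2, so genotype and batch cannot be told apart, while the diet comparison within KO mice lies inside 1 batch. How the knockout was made, the sex of the mice and the strain are not given in the sources used here.

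VB6 is taken up in several forms and converted to pyridoxal 5'-phosphate (PLP), the cofactor of aminotransferases, amino acid decarboxylases and many other enzymes. In the brain these include the glutamate decarboxylases that make GABA and the decarboxylase that makes dopamine and serotonin. GLO1 is the first enzyme of the glyoxalase pathway, which removes methylglyoxal, a reactive by-product of glycolysis; the B6 form pyridoxamine can also react with such carbonyls. The striatum consists mostly of medium spiny neurons (MSNs), which use GABA and fall into a direct-pathway type with the dopamine receptor DRD1 and an indirect-pathway type with DRD2.

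Messenger RNA was measured as read counts per gene in 1 library per mouse. Library totals were between 7640047 counts (mouse 381) and 12959064 counts (mouse 390), with a mean of 10077839 on the normal and 10796963 on the lacking diet (difference 719124; exact permutation test, two-sided, p = 0.556, n = 5 per group). The RNA integrity number (RIN) had a mean of 8.34 ± 0.391 (SD, n = 5) on the normal and 8.64 ± 0.207 (SD, n = 5) on the lacking diet (exact permutation test, two-sided, p = 0.206; 0.412 after Benjamini-Hochberg adjustment over both measures). VB6 in these mice was 60.09, 66.71, 70.09, 78.09 and 60.55 ng/µl on the normal diet and 4.55, 5.63, 2.4, 2.25 and 3.78 ng/µl on the lacking diet; the labels do not name the material measured. The groups did not overlap (exact permutation test, two-sided, p = 0.00794, the smallest p that 5 against 5 mice can give). Glo1, the targeted gene, had between 2 and 10 counts in each of the 10 KO libraries and between 299 and 607 counts in each of the 10 WT striatum libraries. The libraries carried striatal markers: in RPKM, read counts scaled to gene length and library total, the KO median of Drd1 was 144.9 in striatum, 5.02 in prefrontal cortex and 1.99 in hippocampus, and that of the opioid precursor Penk was 948.4, 24.2 and 15.3. The glutamate transporter Slc17a7, a marker of cortical excitatory neurons, was at 5.30 to 32.3 RPKM in the KO striatum libraries against a median of 124.0 RPKM in prefrontal cortex. The first principal component of the 10 libraries held 34.3% of the variance and placed libraries of both diets at each end (exact permutation test of the diet, two-sided, p = 0.976, n = 5 per group).

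No gene passed the threshold of an adjusted p under 0.05. Of 21999 genes listed, 13311 had enough counts to be tested, and 0 of them (0%) were called by edgeR's quasi-likelihood test with Benjamini-Hochberg adjustment; the smallest adjusted p was 0.99981. DESeq2 and limma also called 0 genes. At an unadjusted p under 0.05, 86 genes were higher (0.646% of those tested) and 138 lower (1.04%) on the lacking diet, 224 in all (1.68%). DESeq2 gave 248 such genes and limma 254. An even spread of p-values would put 666 genes under 0.05 and 133 under 0.01; 224 and 34 were observed. Thus the number of genes with small p-values lay below that of an even spread, not above it.

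**Figure D1:**
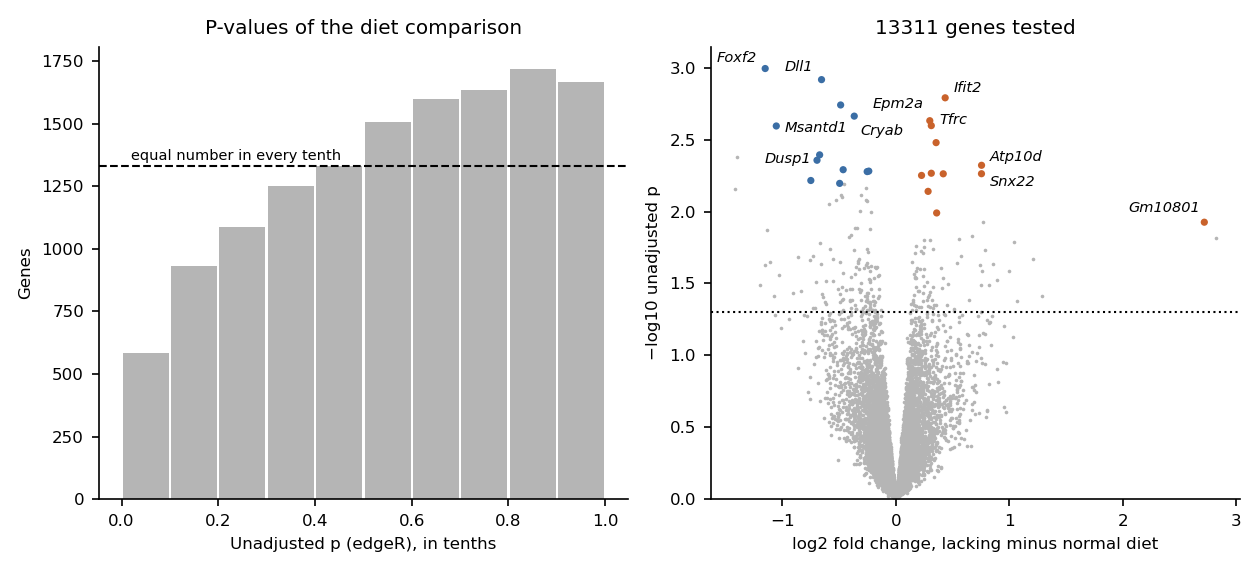
Left, the number of genes in each bin of 0.1 of the unadjusted p (edgeR, x axis), with a dashed line at an equal number per bin; the lowest bin holds 583 genes and the fullest 1720. Right, each tested gene by its log2 fold change (lacking minus normal diet, x axis) and −log10 of its unadjusted edgeR p (y axis), with the leading genes in blue (lower) and orange (higher) and a dotted line at an unadjusted p = 0.05; the points spread evenly around 0.

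The fold changes were small and centred on 0. The median log2 fold change (lacking minus normal diet) was -0.0033, its quartiles were -0.076 and 0.067, and 6510 genes (48.9%) lay above 0 and 6801 (51.1%) below. Of 12806 genes with a mean of at least 1 CPM (counts scaled to a common library total), 7 (0.0547%) had a log2 fold change beyond 1 in either direction. The median 95% interval reached 0.273 to each side on the log2 scale, or 1.21-fold, so a change of that size in a typical gene could not be told from none with 5 mice per diet. These intervals are not adjusted for the number of genes, and passing the adjusted threshold would take a larger change. The 5 libraries of one diet lay wholly above or below the 5 of the other in 26 genes (0.195% of those tested), 11 higher (0.0826%) and 15 lower (0.113%). The single genes named next are the 12 with the smallest unadjusted p in each direction among those with a mean of at least 1 CPM, and the 5 with the largest fold change in each direction among those that did not overlap. Their values are descriptions, since each had an adjusted p of at least 0.99981.

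Among the genes lower on the lacking diet, Foxf2 had the smallest p of all. It encodes a forkhead transcription factor that in the adult brain is expressed in pericytes of the vessel wall (chromosome 13, 31625816 to 31631403; coordinates here are GRCm38, GENCODE vM21). In CPM scaled by TMM factors, and listed by rising mouse number here and below, Foxf2 was at 2.23, 2.17, 1.19, 1.82 and 2.11 on the normal diet and at 0.779, 0.490, 1.054, 0.861 and 1.08 on the lacking diet. The groups did not overlap, although mouse 368 on the normal diet at 1.19 lay close to mouse 452 on the lacking diet at 1.08. The log2 fold change was -1.15 (SE 0.308, 95% interval -1.79 to -0.52; edgeR, unadjusted p = 0.00101). These levels rest on few reads, with at most 28 counts in a library.

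Dll1, a ligand of Notch receptors (chromosome 17, 15367354 to 15376872), was at 5.35, 6.72, 4.75, 3.78 and 5.43 CPM on the normal and 2.34, 3.31, 3.90, 3.87 and 3.33 CPM on the lacking diet, with mouse 381 on the normal diet inside the range of the lacking diet (log2 fold change -0.66, SE 0.178, unadjusted p = 0.00121). An antisense gene overlaps 20.6% of its exonic bases, and since no source used here gives the strand setting of the counting, reads of the pair cannot be told apart. Enho, which encodes the secreted peptide adropin, was at 4.64, 3.76, 3.804, 5.61 and 5.88 CPM on the normal and 2.73, 2.94, 2.42, 3.01 and 3.51 CPM on the lacking diet without overlap (log2 fold change -0.70, SE 0.221). Tgfb1, a cytokine that in brain is made largely by microglia and vessel cells, was at 5.00, 4.05, 4.64, 4.91 and 5.35 CPM on the normal and 2.49, 3.92, 3.79, 3.70 and 3.24 CPM on the lacking diet, also without overlap (log2 fold change -0.50, SE 0.166). The remaining genes of the 12 with the smallest p were Amotl2 (-0.49), a scaffold of cell junctions, Cryab (-0.37) and Stip1 (-0.25), which belong to the chaperone system, Dusp1 (-0.67), an immediate early phosphatase, Pbx2 (-0.24), a homeodomain cofactor, Ttyh3 (-0.46), Fbxo27 (-0.75) and Msantd1 (-1.05). In Ttyh3 the library of mouse 381 at 112.1 CPM stood above the others of the normal diet, at 63.2 to 74.7 CPM. Mrps36 (log2 fold change -0.75) and Map3k15 (-0.51) also had groups that did not overlap, from group means between 1.12 and 2.15 CPM.

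Among the genes higher on the lacking diet, Ifit2 led. It is an interferon-induced gene (chromosome 19, 34550694 to 34576419), and it was at 9.19, 8.80, 11.1, 8.83 and 10.1 CPM on the normal and 13.6, 11.8, 12.6, 11.3 and 15.5 CPM on the lacking diet. The groups did not overlap, with mouse 368 on the normal diet at 11.1 just under mouse 339 on the lacking diet at 11.3 (log2 fold change 0.43, SE 0.122, 95% interval 0.18 to 0.69; edgeR, unadjusted p = 0.00162). Tfrc, the transferrin receptor for iron uptake, was at 98.4, 119, 141, 110.4 and 102 CPM on the normal and 147, 127, 139, 131 and 165 CPM on the lacking diet. Mouse 368 on the normal diet lay inside the range of the lacking diet (log2 fold change 0.31, SE 0.0925). Epm2a, which encodes the glycogen phosphatase laforin, was at 26.0, 26.5, 25.8, 22.8 and 25.7 CPM on the normal and 34.0, 26.3, 34.7, 30.2 and 30.9 CPM on the lacking diet; mouse 244 lay within the range of the normal diet.

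Trpc6, Adk and Atp10d also had groups without overlap. Trpc6, a cation channel, was at 10.9, 13.5, 11.4, 10.4 and 11.8 CPM on the normal and 14.8, 13.7, 16.4, 14.0 and 15.3 CPM on the lacking diet (log2 fold change 0.35). Adk, the kinase that clears adenosine, was at 40.6, 37.0, 38.6, 40.2 and 38.8 CPM and 47.4, 44.5, 49.95, 42.5 and 44.0 CPM (log2 fold change 0.23, SE 0.0744). Atp10d, a gene of the lipid flippase family annotated as a polymorphic pseudogene, was at 1.96, 1.88, 1.78, 0.561 and 1.96 CPM and 2.65, 3.31, 2.21, 3.10 and 2.97 CPM (log2 fold change 0.76), with mouse 381 lowest. Katnal2 (0.42) was the other leading gene without overlap. Apopt1 (0.31), Snx22 (0.76), Ccdc71l (0.28) and Scfd2 (0.36) had overlapping groups; 28.5% of the exonic bases of Snx22 are shared with Ppib on the opposite strand. Gm10801 had the largest log2 fold change of the named genes (2.72), from values between 0 and 9.68 CPM that spread widely among the lacking libraries (mean 4.30 ± 4.61 CPM, SD, n = 5).

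**Figure D2:**
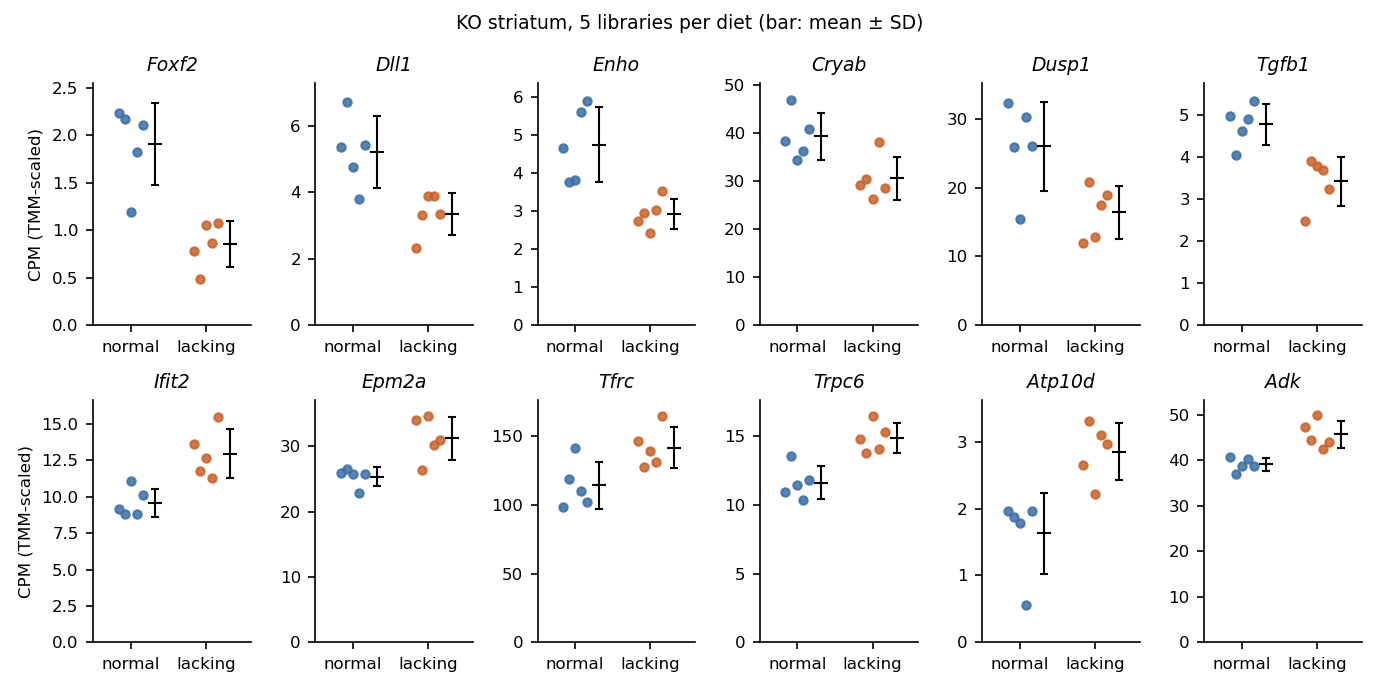
CPM scaled by TMM factors (y axis, from 0) for 12 of the leading genes, with 1 point per library, blue for the normal and orange for the lacking diet, and the mean ± SD of 5 libraries beside them. The upper row holds genes lower and the lower row genes higher on the lacking diet; Foxf2, Enho, Tgfb1, Ifit2, Trpc6, Atp10d and Adk do not overlap between diets.

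Genes of VB6 handling itself showed no call. Of the 8 tested genes of VB6 salvage and transport, 0 had an unadjusted p under 0.05 (all genes: 1.68%). At that share, 0 among so few genes tells little. Of these genes 4 were above and 4 below 0, and the median log2 fold change was -0.026 against -0.0033 over all genes tested. Pdxk, the kinase that phosphorylates the B6 forms, was at 179, 172, 164, 159.9 and 198 CPM on the normal and 167, 181, 152, 182 and 151 CPM on the lacking diet (log2 fold change -0.069, 95% interval -0.23 to 0.089). The ranges of the diets overlapped. A gene on the opposite strand overlaps 39.0% of the exonic bases of Pdxk. The PLP-binding homeostasis protein, listed as Prosc, had a log2 fold change of 0.026 (95% interval -0.14 to 0.19), and the phosphatase Alpl, which frees pyridoxal from PLP outside cells, one of -0.15 (95% interval -0.49 to 0.18). The PLP phosphatase Pdxp was not analysed here.

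Among the enzymes that use PLP no member of the 4 lists had an unadjusted p under 0.05. That share was 1.68% over all genes tested, of which 48.9% lay above 0. In the list of GABA, monoamine, histamine and taurine synthesis 4 of 6 tested genes were above 0, with a median of 0.010. Gad1, which makes most cytosolic GABA, was at 695, 739.7, 759, 850.5 and 745 CPM on the normal and 758, 808, 829.7, 667 and 742 CPM on the lacking diet (log2 fold change 0.0062, 95% interval -0.15 to 0.16). That interval reaches 0.16 at most on the log2 scale. Gad2 (-0.051, -0.24 to 0.14), the GABA transaminase gene Abat (0.014, -0.13 to 0.16) and the decarboxylase gene Ddc (0.11, -0.20 to 0.43) also had intervals around 0. For the enzymes of serine, glycine, sulfur and heme metabolism 7 of 14 were above 0 (median 0.00049), with Cth, the last enzyme of cysteine synthesis, at 0.56 (unadjusted p = 0.0889) and the cysteine desulfurase gene Nfs1 at -0.16. For aminotransferases and kynureninase 3 of 11 were above 0 (median -0.010; Got1 -0.048). The list of sphingolipid, polyamine and glycogen enzymes also takes in the threonine synthase-like genes Thnsl1 and Thnsl2. In it 8 of 11 were above 0 (median 0.019), with Thnsl1 at 0.19 (edgeR, unadjusted p = 0.0553). The muscle glycogen phosphorylase gene Pygm was at -0.19 (edgeR, unadjusted p = 0.0925).

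Dicarbonyl detoxification, the pathway that the knockout interrupts, was evenly divided, with 9 of 18 tested genes above and 9 below 0 and a median of -0.0052. It held 0 genes at an unadjusted p under 0.05 (all genes: 1.68%), which tells little in so short a list. The genes above 0 include the targeted gene Glo1 itself (0.22), which rests on 2 to 10 counts per KO library. It was tested only because the fit also held the WT libraries. Hagh, the second glyoxalase, was at 43.9, 38.3, 36.8, 39.7 and 45.6 CPM on the normal and 37.2, 35.9, 37.2, 44.6 and 29.7 CPM on the lacking diet (log2 fold change -0.15, 95% interval -0.39 to 0.091). Its groups overlapped. Aldh3a2, an aldehyde dehydrogenase, had a log2 fold change of 0.13 and Glod4 one of 0.11; 58.5% of the exonic bases of Glod4 are shared with other genes.

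**Figure D3:**
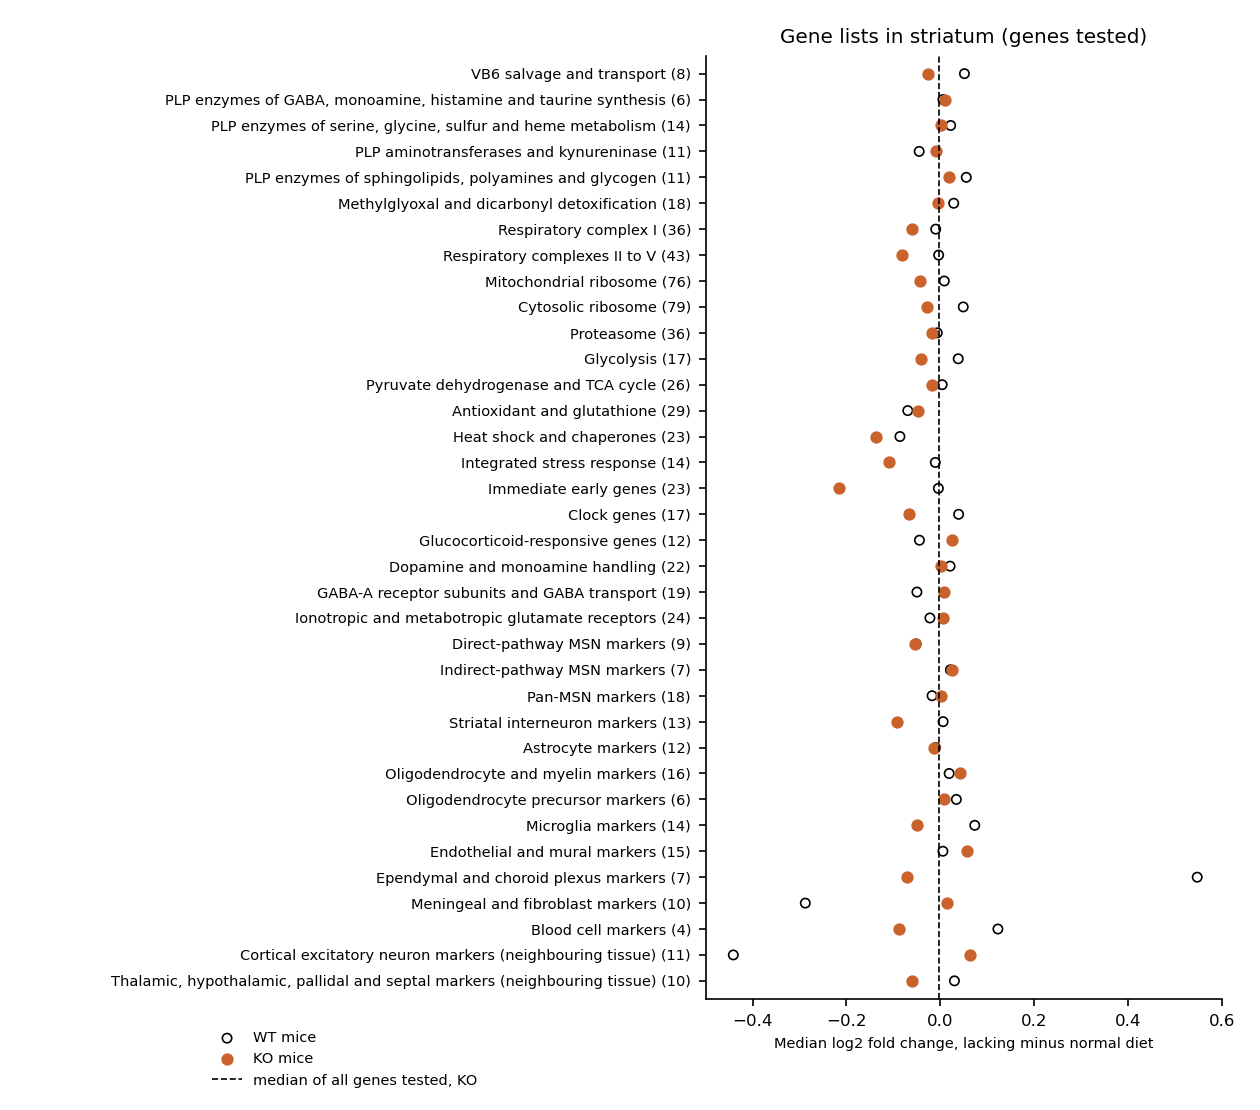
Median log2 fold change (lacking minus normal diet, x axis) of each gene list in striatum, filled for KO and open for WT mice, with the number of genes tested in brackets and a dashed line at the median of all genes tested in KO mice. In KO mice the immediate early genes lie farthest from the line at -0.22, followed by the heat shock and chaperone list at -0.14.

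Chaperones fold new or damaged proteins, and heat shock factor induces many of them under stress. Of 23 tested genes of the heat shock and chaperone list 21 were below 0 (all genes: 51.1%), the median was -0.14, and 4 had an unadjusted p under 0.05, all lower (all genes: 1.04%). None passed the adjusted threshold. The 4 genes were Cryab, Hspa1b, Bag3 and Hsph1. Cryab, a small heat shock protein abundant in glia (chromosome 9, 50751325 to 50756636), was at 38.3, 46.9, 34.5, 36.2 and 40.9 CPM on the normal and 29.1, 30.5, 26.2, 38.1 and 28.6 CPM on the lacking diet. Hspb2 on the opposite strand overlaps 17.0% of its exonic bases, so its counts are uncertain in the same way as those of Dll1. Of the lacking diet only mouse 339 lay inside the normal range (log2 fold change -0.37, SE 0.107, 95% interval -0.59 to -0.15; edgeR, unadjusted p = 0.00217). Bag3, a co-chaperone of HSP70, was at 9.19, 6.72, 5.11, 7.01 and 6.86 CPM and 5.69, 6.004, 5.06, 4.82 and 4.86 CPM (log2 fold change -0.41, unadjusted p = 0.0151). Hspa1b, the inducible HSP70, was at 5.89, 3.46, 1.78, 0.981 and 0.905 CPM and 1.01, 0.735, 1.48, 1.55 and 1.17 CPM (log2 fold change -1.14, unadjusted p = 0.0133). Mice 267 and 268 on the normal diet stood above the remaining 8 libraries in Hspa1b, and without mouse 267 its log2 fold change was -0.58; 55.8% of its 75-base stretches also occur in other genes, so its counts are uncertain.

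Hsph1, the HSP110 exchange factor, was at 610.2, 606, 609, 611 and 583 CPM on the normal and 482, 492, 533, 518 and 639 CPM on the lacking diet (log2 fold change -0.18, 95% interval -0.36 to -0.0064). Of the lacking libraries 4 lay below all 5 normal ones, and mouse 452 lay above them. The constitutive HSP70 gene Hspa8 (log2 fold change -0.19), the HSP40 gene Dnajb1 (-0.28) and the HSP90 gene Hsp90aa1 (-0.10) were below 0 with intervals that include it. The mitochondrial chaperones Hspd1 (0.0063) and Hspe1 (-0.047) were near 0. The mean log2 CPM of the list was 6.65 ± 0.0906 (SD, n = 5) on the normal and 6.47 ± 0.0861 (SD, n = 5) on the lacking diet, with mouse 452 on the lacking diet inside the normal range. The count below 0 was between 18 and 22 of 23 when 1 library was left out, and the count at an unadjusted p under 0.05 between 1 and 9; the median was -0.21 without mouse 452.

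**Figure D4:**
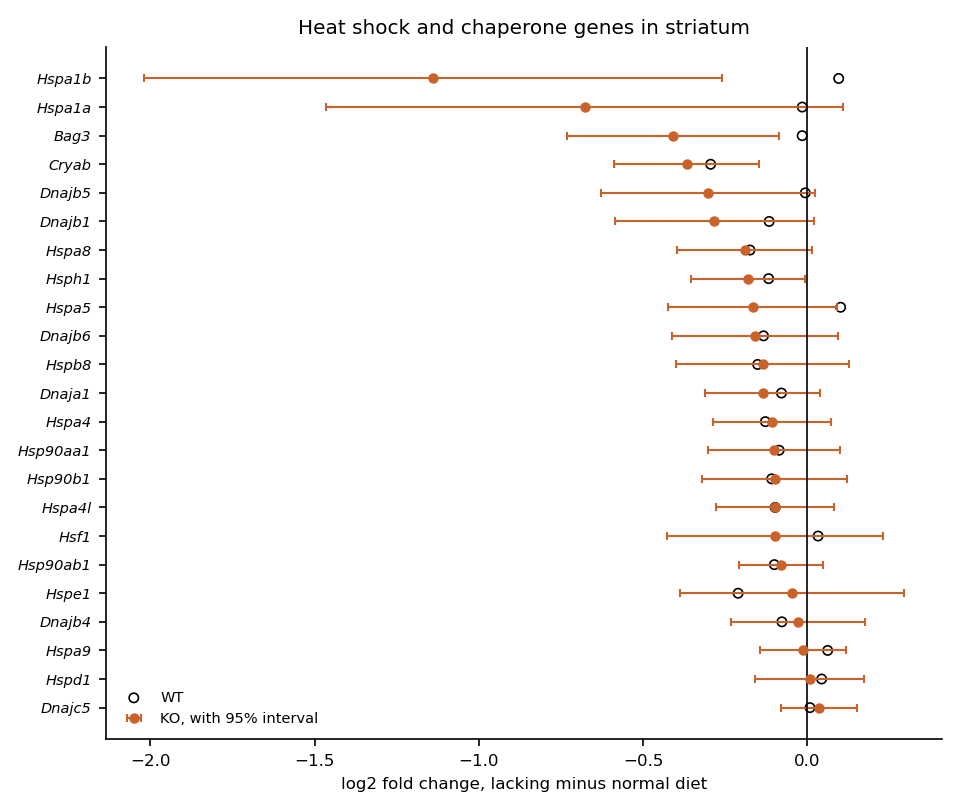
Log2 fold change (lacking minus normal diet, x axis) of the 23 tested heat shock and chaperone genes in KO striatum, filled with the 95% interval (edgeR), and in WT striatum, open. Hspd1 and Dnajc5 lie above 0 in KO mice, and the intervals of Hspa1b, Bag3, Cryab and Hsph1 leave out 0.

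In WT striatum 17 of the 23 chaperone genes were below 0 (all genes: 6708 of 13311), with a median of -0.086. Cryab had a log2 fold change of -0.29 there (edgeR, unadjusted p = 0.00988). Stip1, a co-chaperone that links HSP70 and HSP90 and is not on the list, had log2 fold changes of -0.25 in KO and -0.24 in WT mice (unadjusted p = 0.00527 and 0.00800). In the other KO regions, sampled from the same mice, 627 of 13930 genes (4.5%) in prefrontal cortex and 934 (6.7%) in hippocampus had an unadjusted p under 0.05, and 0 (0%) passed the adjusted threshold in either. The median of the list was -0.071 in prefrontal cortex and -0.012 in hippocampus (20 and 12 of 23 genes below 0). Of the 13302 striatum genes also tested there, 6468 were below 0 in prefrontal cortex and 6682 in hippocampus. Heat shock genes are induced through heat shock elements, inverted repeats of GAA and TTC in their promoters. Promoter windows of RefSeq (GRCm38.p6), from 250 bases before to 50 bases after the gene's start, were searched on both strands for 3 alternating repeats with any 2 bases between them, in the order GAA, TTC, GAA or TTC, GAA, TTC. Of the 23 tested genes 16 had a window, and 4 of these (25%) held a match: Hsph1, Dnajb6, Hspd1 and Hspe1. Genes without a window were not searched. Of 10251 tested genes with a window 57 (0.56%) held one, and of all 32851 windows 198 (0.6%). The windows are shown for Hsph1, whose interval left out 0, and for Dnajb6 and Hspe1, whose intervals did not, with the matches in capitals; that of Hspd1 is largely the opposite strand of the Hspe1 window.
Hsph1, chr5:149636266-149636565, minus strand: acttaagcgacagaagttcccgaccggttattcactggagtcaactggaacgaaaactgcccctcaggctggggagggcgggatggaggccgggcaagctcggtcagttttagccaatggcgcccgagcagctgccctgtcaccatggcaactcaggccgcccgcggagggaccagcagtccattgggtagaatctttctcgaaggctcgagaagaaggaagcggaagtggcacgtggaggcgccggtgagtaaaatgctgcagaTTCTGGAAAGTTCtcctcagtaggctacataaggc
Dnajb6, chr5:29735648-29735947, plus strand: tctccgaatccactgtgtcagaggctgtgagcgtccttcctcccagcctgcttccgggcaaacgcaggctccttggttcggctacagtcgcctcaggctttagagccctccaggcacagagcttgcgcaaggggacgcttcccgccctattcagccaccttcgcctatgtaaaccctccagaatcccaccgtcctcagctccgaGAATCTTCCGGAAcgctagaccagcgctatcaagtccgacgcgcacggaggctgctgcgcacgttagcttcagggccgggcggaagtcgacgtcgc
Hspe1, chr1:55087898-55088197, plus strand: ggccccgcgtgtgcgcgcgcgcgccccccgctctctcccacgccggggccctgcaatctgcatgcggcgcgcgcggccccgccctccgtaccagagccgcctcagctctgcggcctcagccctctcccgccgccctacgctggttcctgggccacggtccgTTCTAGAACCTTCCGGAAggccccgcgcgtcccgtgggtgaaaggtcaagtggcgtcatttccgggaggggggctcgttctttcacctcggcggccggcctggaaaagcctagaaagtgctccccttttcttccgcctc

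In the windows shown, the match of Hsph1 began 15 bases after the start and that of Dnajb6 46 bases before it. Both genes have a further listed start, from which the same matches lie 36 bases after and 127 bases before. The Hspe1 window held a pair of overlapping matches. The log2 fold changes of these 4 genes were -0.18 (Hsph1), -0.16 (Dnajb6), -0.047 (Hspe1) and 0.0063 (Hspd1). Among them only Hsph1 had an unadjusted p under 0.05. The windows of Hspe1 and Hspd1 cover largely the same bases, and the part of the element in the chaperone values was not tested.

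Immediate early genes, which neurons transcribe within minutes of activity, had the lowest median of all lists, at -0.22. Of 23 tested genes 19 were below 0 (all genes: 51.1%) and 2 had an unadjusted p under 0.05, both lower (all genes: 1.04%). Dusp1, a phosphatase of MAP kinases (chromosome 17, 26505590 to 26562128), was at 32.3, 25.9, 15.5, 30.3 and 26.0 CPM on the normal and 12.0, 20.8, 12.8, 17.5 and 18.9 CPM on the lacking diet; mouse 368 was the only normal library inside the lacking range (log2 fold change -0.67, SE 0.211, 95% interval -1.11 to -0.24; edgeR, unadjusted p = 0.00403). Junb, a subunit of the AP-1 factor, was at 35.8, 22.9, 17.6, 40.8 and 26.9 CPM and 14.8, 22.3, 13.6, 21.1 and 30.2 CPM with wide overlap (log2 fold change -0.50, unadjusted p = 0.0423). The synaptic gene Arc (-0.66, unadjusted p = 0.0591), the AP-1 subunit Fos (-0.34, unadjusted p = 0.346) and the zinc finger factor Egr1 (-0.32) had intervals that include 0.

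The level of this list varied as much within as between diets. Centred on the mean of the 10 libraries, its mean log2 CPM was 0.41, 0.16, -0.28, 0.36 and 0.044 on the normal and -0.54, -0.23, -0.50, 0.12 and 0.45 on the lacking diet. Mice 242 and 325 on the lacking diet were lowest and mouse 452 on that diet highest. Markers of cortical excitatory neurons, on the same scale, were at 0.37, -0.30, -0.26, 0.28 and -0.041 on the normal and -0.52, -0.10, -0.64, 0.73 and 0.47 on the lacking diet. Mice 242 and 325 were thus lowest in both lists and mouse 452 was among the highest; the part of neighbouring cortex in the immediate early values was not tested. Of the 12 cortical markers 11 were tested, 9 of them above and 2 below 0 in the diet comparison (median 0.062; between -0.19 and 0.22 with 1 library left out), and Slc17a7 reached 32.3 RPKM in 1 library. The median of the immediate early list was -0.14 without mouse 325, -0.33 without mouse 368, -0.35 without mouse 339 and -0.41 without mouse 452, and -0.33 with RIN as a covariate. In the prefrontal cortex of the same KO mice it was -0.27 with 21 of 23 genes below 0, in the hippocampus -0.018 with 13 of 23, and in WT striatum -0.0044 with 13 of 23. The counts below 0 over all genes were 6468 and 6682 of 13302 in these regions and 6708 of 13311 in WT striatum.

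**Figure D5:**
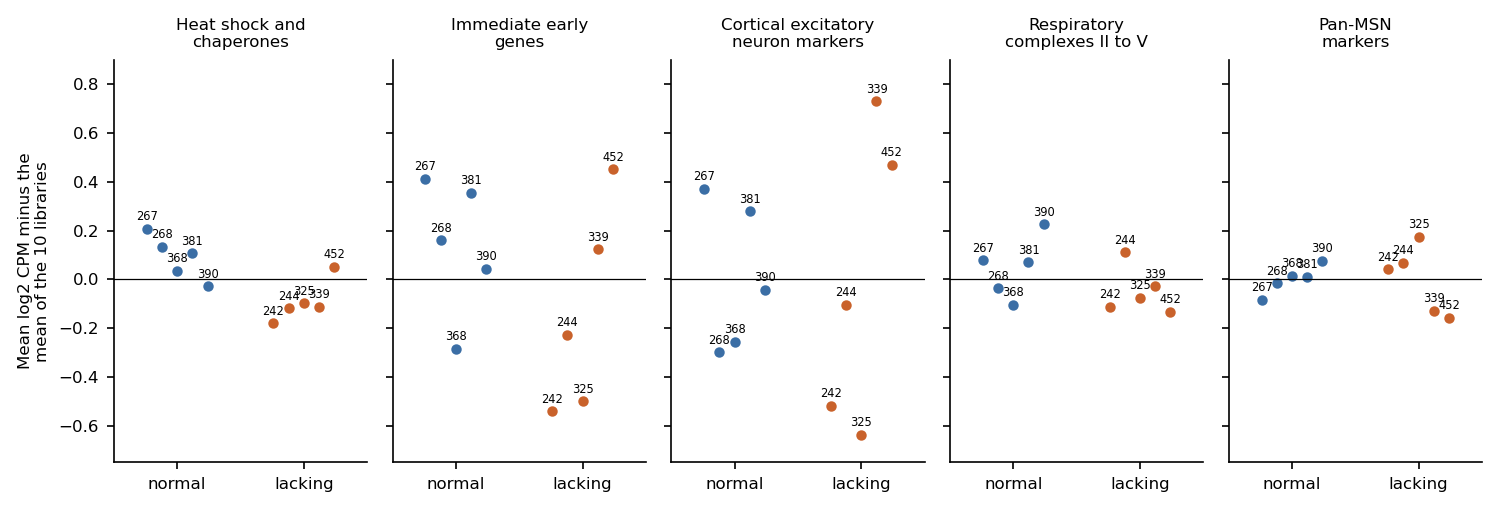
Mean log2 CPM of 5 gene lists in each KO striatum library, centred on the mean of the 10 libraries (y axis), by diet, with the mouse number at each point. In the heat shock list 4 of the 5 lacking libraries lie below the normal ones, while the immediate early and cortical marker lists spread widely within both diets, with mice 242 and 325 lowest.

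Nuclear genes of the respiratory chain encode the subunits that pass electrons to oxygen and make ATP. Of 43 tested genes of complexes II to V 37 were below 0 (all genes: 51.1%; median -0.083), and 2 had an unadjusted p under 0.05: the ATP synthase subunit gene Usmg5 (log2 fold change -0.31, unadjusted p = 0.0351) and 2010107E04Rik (-0.23, unadjusted p = 0.0442), both lower (all genes: 1.04%). Of 36 genes of complex I 26 were below 0 (median -0.061) and 0 had an unadjusted p under 0.05; Ndufa6 had the smallest, 0.0652 (log2 fold change -0.20). Without mouse 390 the count below 0 was 29 of 43 for complexes II to V (median -0.046) and 19 of 36 for complex I (median -0.017), and without mouse 368 the medians were -0.14 and -0.096. With RIN as a covariate the counts were again 29 and 19 and the medians -0.038 and -0.022; RIN was the higher on the lacking diet by 0.3, and its part in these values was not tested. Mitochondrial ribosome genes (48 of 76 below 0, median -0.044) and cytosolic ribosome genes (47 of 79 below 0, median -0.028) lay closer to the median of all genes. At an unadjusted p under 0.05, 1 mitochondrial ribosome gene was lower, Mrps36 (-0.75), and its groups did not overlap. Of the cytosolic ribosome genes 3 were lower at that p, Rpl38 (-0.35), Rps6 (-0.16) and Rpl32 (-0.24), against 1.04% of all genes. In both lists 0 genes were higher at that p.

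Other stress and energy lists held few small p-values. Of all genes tested 51.1% lay below 0, and 1.04% were lower at an unadjusted p under 0.05. Of the integrated stress response, the program induced by ATF4 when amino acids or protein folding are limiting, 11 of 14 genes were below 0 (median -0.11, between -0.14 and -0.042 with 1 library left out), and Ddit3 alone had an unadjusted p under 0.05 (-0.24, unadjusted p = 0.0293). Glycolysis (11 of 17 below 0, median -0.042, or 0.095 with RIN as a covariate and 0.092 without mouse 390), pyruvate dehydrogenase and TCA cycle (16 of 26, -0.018), proteasome (23 of 36, -0.017) and antioxidant genes (21 of 29, -0.048) had 1 gene in all at an unadjusted p under 0.05, the proteasome gene Psmd10 (-0.25). With RIN as a covariate the antioxidant median was 0.0044, and 14 of 29 genes were below 0. Among clock genes 11 of 17 were below 0 (median -0.068), with the period genes Per2 at -0.31 and Per1 at -0.34. Of 12 genes that respond to glucocorticoids 5 were below 0 (median 0.024), with Errfi1 at -0.20 (unadjusted p = 0.0418).

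The main receptor and neuropeptide genes of MSNs had log2 fold changes near 0, while other markers of these cells spread more widely. In bulk tissue fewer cells of a type and less RNA per cell cannot be told apart. Drd1 was at 491, 531, 541, 569 and 485 CPM on the normal and 497, 563, 594, 442 and 524 CPM on the lacking diet (log2 fold change 0.0011, 95% interval -0.16 to 0.16). The neuropeptide genes of the same MSN type, Tac1 (0.012, -0.20 to 0.23) and Pdyn (0.0048, -0.21 to 0.22), were also near 0. Of the indirect-pathway MSNs, Drd2 was at 188, 193, 141, 131 and 237 CPM and 178, 187, 183, 189.7 and 109.6 CPM (log2 fold change -0.075), with mouse 452 lowest, and Penk (0.0047, -0.23 to 0.24) and the adenosine receptor gene Adora2a (0.025, -0.29 to 0.34) lay around 0. In the whole direct-pathway list 5 of 9 markers were below 0 (all genes: 51.1%; median -0.054, members from -0.17 to 0.16). In the indirect-pathway list 5 of 7 were above 0 (all genes: 48.9%; median 0.025, members from -0.075 to 0.17). Of 18 pan-MSN markers 9 were above and 9 below 0 (median 0.00020). In the dopamine and monoamine list 12 of 22 were above 0 (median 0.00085). There Th, the rate-limiting enzyme of dopamine synthesis, had a log2 fold change of 0.43 (edgeR, unadjusted p = 0.104). In the GABA-A receptor and transport list 12 of 19 were above 0 (median 0.0078). Both lists held 0 genes at an unadjusted p under 0.05 (all genes: 1.68%). Of 24 glutamate receptor genes 1 had an unadjusted p under 0.05, Grid1 (-0.15, unadjusted p = 0.0387), which was lower (all genes: 1.04%).

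Markers of other cells of the tissue held 0 genes at an unadjusted p under 0.05 in each list. Over all genes tested this share was 1.68%, and 51.1% lay below 0. Interneuron markers had 10 of 13 genes below 0 (median -0.093), with Vip at 0.55, Sst at -0.19 and Npy at -0.18. Astrocyte markers had 8 of 12 below 0 (median -0.013; the angiotensinogen gene Agt -0.65, the glutamate transporter gene Slc1a2 0.12), myelin markers 5 of 16 (0.042; Mog 0.14), precursor markers 2 of 6 (0.0066), microglia markers 11 of 14 (-0.049; Cx3cr1 0.10, C1qb -0.19, Aif1 -0.22) and vessel markers 5 of 15 (0.057; Tek 0.14). Markers of ependyma and choroid plexus (4 of 7 below 0, -0.072), meninges (5 of 10, 0.014), blood (2 of 4, -0.088) and thalamus, hypothalamus, pallidum and septum (7 of 10, -0.061) were also on both sides of 0. The choroid plexus marker Ttr had between 0 and 53 counts per library.

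Whether the diet difference depended on genotype was tested as an interaction in the striatum fit. Of 13311 genes 0 (0%) passed (edgeR, Benjamini-Hochberg; DESeq2 also gave 0), and 226 (1.7%) had an unadjusted p under 0.05. Since genotype and batch coincide, such a difference could not have been assigned to either. In WT striatum the diet gave 0 calls and 387 genes (2.91%) at an unadjusted p under 0.05. Foxf2 had a log2 fold change of -1.15 in KO and 0.39 in WT mice (interaction in edgeR, unadjusted p = 0.00158), Epm2a 0.30 and -0.11 (unadjusted p = 0.00301), Enho -0.70 and 0.21 (unadjusted p = 0.00685), and Ifit2 0.43 and -0.055 (unadjusted p = 0.00882). None of these passed after adjustment. In WT striatum the median of the cortical markers was -0.44, with 11 of 11 below 0 (all genes: 6708 of 13311), against 0.062 in KO mice. The part of the cortical markers in these comparisons was not tested.

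Whether it depended on region was tested in a fit of all 60 libraries. Between striatum and prefrontal cortex of KO mice 0 of 13930 genes differed (edgeR, Benjamini-Hochberg), and 259 (1.86%) had an unadjusted p under 0.05; between striatum and hippocampus 0 differed, and 291 (2.09%) had one. Side by side, Tfrc had log2 fold changes of 0.31 in striatum, 0.30 in prefrontal cortex and 0.28 in hippocampus, and Dusp1 had -0.67, -0.79 and -0.31. Foxf2 had -1.15, -0.11 and -0.40, and Ifit2 0.43, 0.10 and 0.15. Neither a difference between regions nor its absence was shown for these genes.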

How the data were processed

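The labels describe poly(A) RNA libraries from 2 µg of total RNA, read as 75-base single ends. The authors deposited gene counts for each library and RPKM values beside them; STAR 2.7.1a, HTSeq 0.9.1 and mm10 are named in the submitters' processing notes, and the annotation and strand setting are not given in the sources used here. The deposited RPKM matched count over length and total. Depth was 7640047 to 12959064 counts per library in KO striatum, and the limit of 3 counts was 0.231 to 0.393 CPM. Intervals cover the spread between mice.

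Counts of the 20 striatum libraries (5 mice in each of 4 groups) were fitted with edgeR 4.0.16 (R 4.3.3; TMM factors, filterByExpr with at least 10 counts and a total of 15, quasi-likelihood test, two-sided, Benjamini-Hochberg over all genes tested, threshold 0.05); region comparisons used all 60 libraries. The fits were run on simulated counts with a fixed spread between libraries. Small changes and changes in low-count genes were not among those simulated. List levels are mean log2 CPM with a prior count of 2. Alternatives were DESeq2 1.42.0, limma 3.58.1 on log2(RPKM + 1), other filters and scaling, RIN, and leaving out each library. A mouse gave all 3 regions, so the mouse number pairs regions: deviations correlated by 0.0904 on average between striatum and prefrontal cortex (5 of 10 mice over 0.1) and 0.0973 between striatum and hippocampus (6 of 10), against -0.0221 and -0.0241 between other mice. Diet groups hold different mice.

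Named genes are Glo1, the 12 smallest p-values in each direction and the 5 largest fold changes in each direction among non-overlapping genes (mean of at least 1 CPM), and 3 per list with fixed additions (some that the rule takes are not reported here); further chaperone and immediate early genes, and those with a promoter match, were named after their values were seen. The members and lists were chosen with earlier results of these data known. Gene positions and shared sequence come from GENCODE vM21, promoters from RefSeq.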

Additional observations from a re-analysis of the deposited data

Results flagged for a closer look

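In 18 of 356 groups of 5 libraries examined, 1 library stood apart from the others of its diet by more than Dixon's 95% limit of 0.71; chance flags about 1 in 20 groups, here 18. Of the 18 observed, 8 were in mouse 381, the library with the lowest total and at one end of the first principal component, 3 each in mice 390 and 452, 2 in mouse 244 and 1 each in mice 268 and 368.

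On the normal diet, mouse 381 was lowest in Epm2a at 22.9 CPM (others 25.7 to 26.5) and in Atp10d at 0.561 CPM (others 1.78 to 1.96). It was highest in Ttyh3 at 112.1 CPM (others 63.2 to 74.7), in the cysteine desulfurase gene Nfs1 at 35.7 CPM (others 25.2 to 28.2), and in the complex II genes Sdhd at 56.2 CPM (others 36.7 to 39.6) and Sdhc at 65.9 CPM (others 31.6 to 39.6). Its mean log2 CPM was 5.44 over the PLP enzymes of GABA and monoamine synthesis (others 5.65 to 5.72) and 4.67 over the glucocorticoid-responsive genes (others 4.55 to 4.57). Without mouse 381 the log2 fold change of Epm2a was 0.26 (all libraries 0.30), that of Atp10d 0.58 (all libraries 0.76) and that of Ttyh3 -0.30 (all libraries -0.46).

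Mouse 390 was highest in Thnsl2 at 1.73 CPM (others 0.561 to 0.803), in Pdyn at 101.8 CPM (others 68.9 to 77.9) and over the dopamine and monoamine list at a mean log2 CPM of 5.995 (others 5.79 to 5.84). Mouse 268 was highest in the prolactin receptor gene Prlr at 9.29 CPM (others 1.40 to 2.62). Mouse 368 was lowest over the glutamate receptor list at a mean log2 CPM of 6.33 (others 6.41 to 6.43).

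On the lacking diet, mouse 452 was lowest in Drd2 at 109.6 CPM (others 177.6 to 189.7), in Ldhb at 135.6 CPM (others 167.5 to 176.9) and over the dopamine and monoamine list at a mean log2 CPM of 5.70 (others 5.90 to 5.92). Without mouse 452 the log2 fold change of Drd2 was 0.05 (all libraries -0.08). Mouse 244 was lowest in Scfd2 at 11.2 CPM (others 13.5 to 14.3) and highest in Ddit3 at 15.7 CPM (others 12.2 to 12.9).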

How the results depend on the processing

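The count of 0 genes at an adjusted p under 0.05 held under DESeq2 and limma, with unscaled library totals, without the low-count filter or with a mean of at least 1 CPM required, with RIN as a covariate, in the 10 KO striatum libraries alone and in each of 10 fits with 1 library left out, where the smallest adjusted p was 0.993. The number of genes higher at an unadjusted p under 0.05 was 86, and it was 152 without the low-count filter, 150 with RIN as a covariate and 44 with the 10 libraries alone; the number lower was 138, and 89 with the 10 libraries alone. With 1 library left out these numbers ran from 71 (without mouse 242) to 182 (without mouse 339) higher and from 100 to 281 lower, for the same libraries. The interaction with genotype and the differences between regions stayed at 0 calls with 1 library left out, and both region comparisons stayed at 0 with the mouse as a replicate block, where 273 and 311 genes had an unadjusted p under 0.05; the block changed no other call. Of 36 list medians 25 changed sign in at least 1 fit with a library left out, and 8 with RIN as a covariate; medians near 0 thus give no stable direction. Among them direct-pathway MSN markers ran from -0.066 (without mouse 390) to 0.030 (without mouse 339), glycolysis from -0.105 to 0.092, cytosolic ribosome from -0.063 to 0.043, microglia from -0.118 to 0.052, astrocytes from -0.057 to 0.018, blood from -0.24 to 0.11 and ependyma from -0.095 to 0.14. The other 11 medians kept their sign in the fits with a library left out. The chaperone, immediate early, integrated stress and both respiratory lists stayed below 0 there, as did the antioxidant, clock, mitochondrial ribosome and interneuron lists. With RIN as a covariate, however, the antioxidant median was 0.0044. The vessel and myelin marker lists stayed above 0. Named genes near 0 changed sign: Drd1 was at -0.000663 with DESeq2, -0.0099 with limma, -0.0060 without TMM factors, -0.0035 without the filter, -0.0055 with RIN and -0.0026 with the 10 libraries. Gad1 was at -0.0011 with limma, Pdyn at -0.0062 without TMM factors and -0.000807 without the filter, Penk at -0.0047 and -0.000575 under the same settings, and Ldha at 0.0078 and Prosc at -0.032 with RIN. With 1 library left out the log2 fold changes that changed sign ran over Abat -0.033 to 0.065, Adora2a -0.072 to 0.16, Arpp21 -0.17 to 0.020, Bcas1 -0.10 to 0.014, C1qb -0.31 to 0.0092, Drd1 -0.050 to 0.058, Drd2 -0.17 to 0.050, Fezf2 -0.14 to 0.50, Gad1 -0.029 to 0.052, Gad2 -0.11 to 0.020, Glo1 -0.20 to 0.45, Got1 -0.078 to 0.016, Ldhb -0.15 to 0.0075, Ly6c1 -0.36 to 0.049, Pdyn -0.043 to 0.11, Penk -0.061 to 0.10, Plxdc1 -0.042 to 0.23, Prlr -0.79 to 0.22, Prosc -0.0070 to 0.064, Rorb -0.015 to 0.19, Sdhc -0.23 to 0.077, Tac1 -0.047 to 0.085. The cause was not tested. With 5 mice per diet a typical gene's unadjusted 95% interval reached 1.21-fold to each side, and genes under about 1 CPM rest on few reads.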
